A study of Drosophila melanogaster with 6 samples.

Results

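Trypsins, Jonah proteases and related genes, a group that includes secreted proteases with which flies digest food protein, were followed by their transcripts in whole male flies. The flies were fed lithocholic acid (LCA), a secondary bile acid made by gut bacteria of vertebrates, or control food. Genes were chosen by their symbols, which do not show that each encodes a digestive enzyme. They were Jonah genes (Jon and a cytological position), trypsin genes (a Greek letter and Try), genes named Ser and a number, yip7 and SPH93. The gene table held 33 such genes, and 27 of them were measured by a probe set of their own, of 11982 genes in all. These were 13 Jonah genes, 9 trypsins, 4 Ser genes and yip7. Not measured here were gammaTry, deltaTry, Jon99Cii, Jon99Ciii and Jon99Fii, and SPH93, whose probe set is annotated to a second gene as well. Each measured gene had a single probe set. Whether such a probe set also reads neighbouring genes that had none of their own was not tested. Examples are gammaTry beside betaTry, and Jon99Cii beside Jon99Ci.

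Each of 6 Affymetrix arrays carried RNA from 10 pooled whole males of strain W1118, 30 days of age, which lack a working white gene and are otherwise used as wild type. The LCA group (3 arrays) had been kept on medium with 50 µmol/l LCA and the control group (3 arrays) on the same kind of medium without it. The authors' deposited log2 signals are used throughout, so a difference of 1 is a doubling, and SD and SE are on that scale. Signals of different probe sets are not a measure of which transcript is more abundant. A pooled whole fly holds the gut together with every other tissue, and fewer gut cells cannot be told apart from less RNA per gut cell.

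Trypsins and the Jonah proteases share the serine protease fold of chymotrypsin. Enterocytes of the fly midgut make them as inactive precursors and secrete them into the lumen, where trypsins cut after lysine and arginine, and chymotrypsin-like enzymes after other residues. In the fly midgut their genes are known to respond to the food, among other inputs through the GATA factor GATAe and through the activin-like ligand Dawdle (daw). Many of them lie in tandem arrays that arose by duplication.

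**Figure D1:**
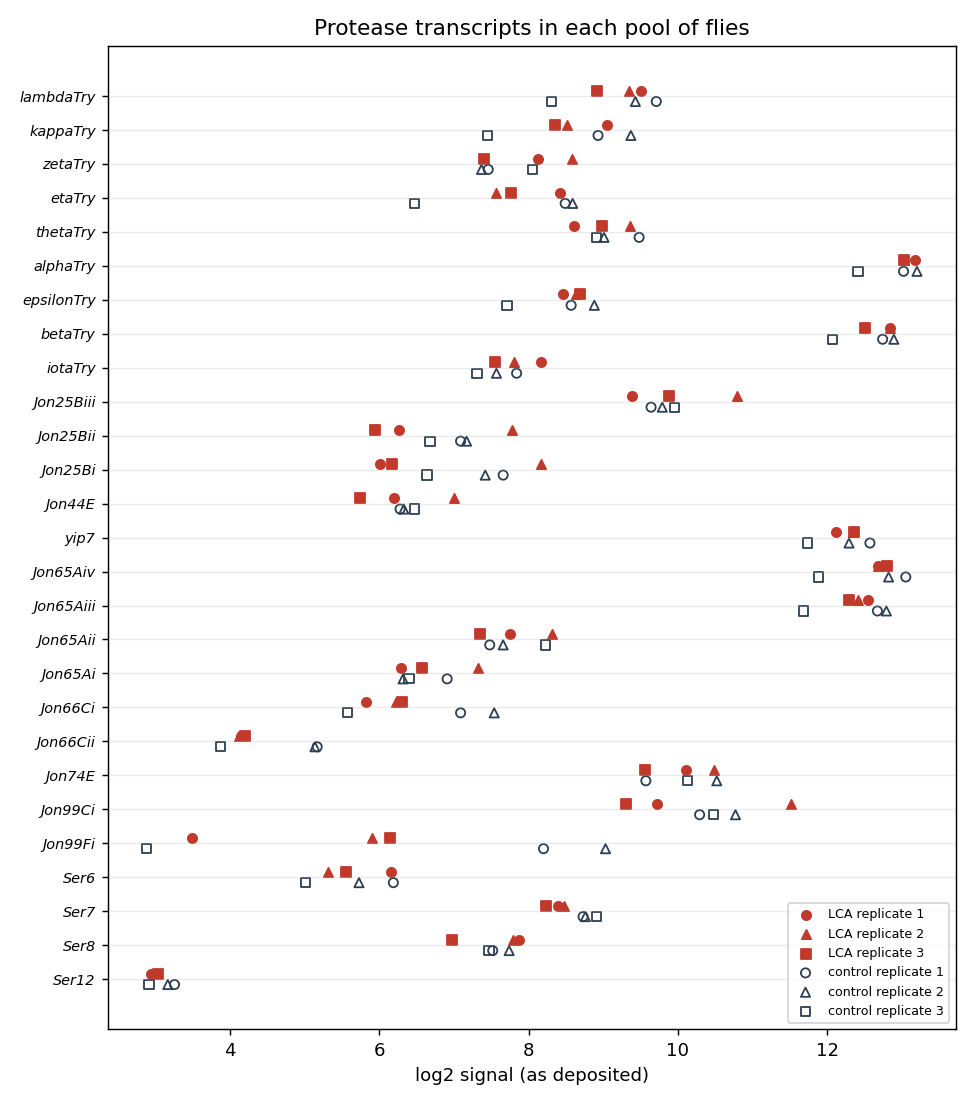
Log2 signal of the 27 protease genes (rows) in each array, filled symbols for the 3 LCA arrays and open symbols for the 3 control arrays, with a shape for each replicate number. The symbols of the diets are mixed in every row but Ser7, and in many rows the open square (control replicate 3) lies furthest left.

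The arrays had medians of 6.38 to 6.39 in the LCA group and 6.31 to 6.35 in the control group. On the first principal component over genes (57.3% of the variance), control replicate 1 stood apart at 39.2, the LCA arrays lay between −20.1 and −6.62, and control replicates 2 and 3 lay at 14.2 and −11.0. Over all genes limma placed 0 of 11982 under an adjusted p of 0.05 (percent called: 0%), with a lowest adjusted p of 0.0750. At an unadjusted p under 0.05 it counted 2169 genes (18.1%), 998 higher (8.33%) and 1171 lower (9.77%) in LCA flies.

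Not 1 of the 27 genes came under limma's adjusted threshold, taken over all genes, and the lowest adjusted p among them was 0.154. Before adjustment, 1 gene had a limma p under 0.05 (3.70%, against 18.1% of all genes). In 1 gene, Ser7, the 3 LCA arrays did not overlap the 3 control arrays, against 26.1% of all genes. Ser7 was lower in LCA flies. Among all 11982 genes, the groups did not overlap in 1792 that were lower and 1341 (11.2%) that were higher in LCA flies. Of the 27, 12 were lower and 15 higher in LCA flies, beside 50.3% of all genes lower, and the median difference was 0.03, beside 0.00 for all genes. The median was −0.01 under quantile normalization and −0.02 with each array centred on its median. The sign of the median thus turned with the scaling. The median size of a difference, without regard to sign, was 0.16 in the proteases and 0.16 in all genes.

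**Figure D2:**
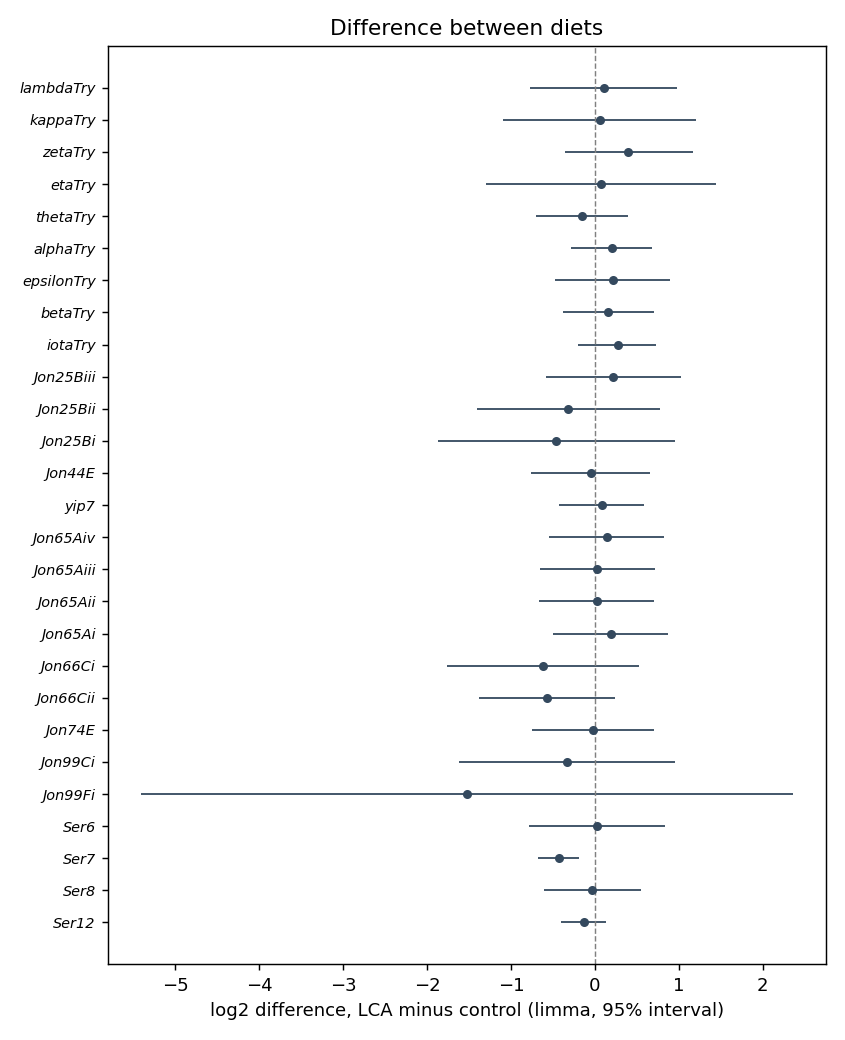
Log2 difference (LCA minus control) of each protease gene with limma's 95% interval, 3 arrays per diet. The interval of Ser7 (−0.68 to −0.19) alone leaves out 0, and that of Jon99Fi is widest, from −5.41 to 2.36.

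Trypsins. Of the 9 trypsins 8 were higher in LCA flies, with a median of 0.16, and none passed limma's threshold over all genes (lowest adjusted p = 0.458). alphaTry, a trypsin of the main tandem array, read 13.18, 13.02 and 13.03 in LCA replicates 1 to 3, against 13.02, 13.20 and 12.41 in control replicates 1 to 3. Control replicate 3 was the lowest array and control replicate 2 the highest, with the LCA arrays and control replicate 1 between them. betaTry, a close neighbour of alphaTry, read 12.84, 12.84 and 12.50 in LCA flies, against 12.74, 12.89 and 12.07 in control flies, with the same array lowest. The differences were 0.20 ± 0.20 and 0.16 ± 0.23 (SE; limma adjusted p = 0.596 and 0.723). Both signals are near the upper end of the deposited values, which reach 14.6, and whether bright probes compress differences there was not tested.

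etaTry had the widest range among the trypsins. It read 8.42, 7.57 and 7.77 in LCA flies, against 8.49, 8.59 and 6.47 in control flies, so that control replicate 3 stood 2.12 below the highest control array, a 4.35-fold gap between pools on the same food. Its means were 7.92 ± 0.44 in LCA flies, against 7.85 ± 1.20 in control flies (SD, n = 3 each). zetaTry went the other way between arrays. It read 8.12, 8.58 and 7.40 in LCA flies, against 7.46, 7.37 and 8.05 in control flies, with control replicate 3 the highest of its group. Its difference, 0.40 ± 0.32 (SE), was the highest of all 27 genes, and limma gave it an adjusted p of 0.492. iotaTry, at the end of the array, read 8.16, 7.81 and 7.55 in LCA flies, against 7.84, 7.57 and 7.31 in control flies. The groups overlapped, and the difference was 0.27 ± 0.20 (SE; limma adjusted p = 0.458).

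The other trypsins were epsilonTry, kappaTry, lambdaTry and thetaTry. thetaTry was the single trypsin with a lower mean in LCA flies, at a difference of −0.15 ± 0.23 (SE). epsilonTry, kappaTry and lambdaTry had differences of 0.21, 0.06 and 0.11. In these 3, control replicate 3 was again the lowest of the 6 arrays.

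The Jon65A genes and yip7. Jon65Aiii and Jon65Aiv encode Jonah proteases, and yip7 a protease of the same kind that lies beside them. Jon65Aiv read 12.68, 12.68 and 12.80 in LCA flies, against 13.05, 12.82 and 11.88 in control flies. Jon65Aiii read 12.54, 12.41 and 12.29 in LCA flies, against 12.67, 12.79 and 11.68 in control flies. In both the LCA arrays lay close together, between control replicates 1 and 2 on the high side and control replicate 3 on the low side. yip7 showed less of this, at 12.12, 12.34 and 12.36 in LCA flies, against 12.57, 12.29 and 11.73 in control flies. The differences were 0.14 ± 0.29, 0.03 ± 0.29 and 0.08 ± 0.21 (SE) for Jon65Aiv, Jon65Aiii and yip7, and limma's adjusted p was 0.826, 0.960 and 0.872. The other members of the array, Jon65Ai and Jon65Aii, had differences of 0.19 and 0.02. Jon65Aiii and Jon65Aii were lower in LCA flies once each array was centred on its median (−0.01 and −0.03).

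Jonah genes with a high LCA array. Jon99Ci, of the tandem array at 99C, read 9.72, 11.51 and 9.30 in LCA flies, against 10.29, 10.77 and 10.48 in control flies. LCA replicate 2 was the highest of the 6 arrays and the other LCA arrays were the lowest, with the control arrays between them. Jon25Bi, of the array at 25B, read 6.01, 8.16 and 6.17 in LCA flies, against 7.66, 7.42 and 6.64 in control flies, in the same order. Means of Jon99Ci were 10.18 ± 1.18 in LCA flies, against 10.51 ± 0.24 in control flies (SD, n = 3 each). Those of Jon25Bi were 6.78 ± 1.20 in LCA flies, against 7.24 ± 0.54 in control flies (SD, n = 3 each). The differences, −0.33 ± 0.54 and −0.46 ± 0.59 (SE), were smaller than the spread between the LCA arrays (limma adjusted p = 0.761 and 0.689). Jon25Bii, Jon25Biii, Jon44E, Jon65Ai and Jon65Aii were also highest in LCA replicate 2, and their lowest array was another LCA array. The ranges over the LCA arrays in these 5 ran from 0.97 in Jon65Aii to 1.83 in Jon25Bii, and the sizes of their differences between diets from 0.02 to 0.32.

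Jonah genes with a low control array. Jon99Fi had the widest range of all 27 genes. It read 3.49, 5.91 and 6.15 in LCA flies, against 8.20, 9.03 and 2.89 in control flies. The highest array, control replicate 2, and the lowest, control replicate 3, came from the same diet. The readings of LCA replicate 1 and control replicate 3 were under the 25th percentile of their arrays (3.60 to 3.70), so no fold against them is given. Means were 5.18 ± 1.47 in LCA flies, against 6.70 ± 3.33 in control flies (SD, n = 3 each), and the difference of −1.52 ± 1.63 (SE) was not called (limma adjusted p = 0.618) and rests in part on those dim readings. Jon99Fi has a near copy, Jon99Fii, beside it in the genome, and how far its probe set also reads that gene was not tested.

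Jon66Ci and Jon66Cii, a pair of neighbours, showed a milder form of the same split. Jon66Ci read 5.83, 6.23 and 6.30 in LCA flies, against 7.09, 7.54 and 5.58 in control flies. Jon66Cii read 4.15, 4.12 and 4.21 in LCA flies, against 5.17, 5.14 and 3.88 in control flies. In both genes 2 control arrays lay above all LCA arrays and control replicate 3 lay below them. The differences were −0.62 ± 0.48 and −0.57 ± 0.34 (SE; limma adjusted p = 0.478 and 0.364). Jon66Cii was dim, under the median of the array on all 6 arrays. Jon74E, alone at its position, had a difference of −0.02 ± 0.30 (SE), with a range of 0.96 over the arrays.

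The Ser genes. Ser7, also listed as c-SP3 in the gene table, a form of name used for proteases with a clip domain, was the single gene of the 27 whose groups did not overlap. It read 8.40, 8.47 and 8.23 in LCA flies, against 8.73, 8.76 and 8.91 in control flies, so that every LCA array was below every control array. Means were 8.37 ± 0.12 in LCA flies, against 8.80 ± 0.09 in control flies (SD, n = 3 each). The difference was −0.43 ± 0.10 (SE), or 0.740-fold, with an unadjusted p of 0.00402 and an adjusted p of 0.154 in limma's fit over all genes. It was negative under all 16 alternative settings, with limma adjusted p from 0.00516 to 0.423, the lowest with array weights. Ser7 was also among the 2 least variable of the 27, with an SD within a diet of 0.11, which 30.9% of all genes stayed under.

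Ser12 read 2.94, 2.98 and 3.04 in LCA flies, against 3.26, 3.17 and 2.92 in control flies. All 6 values were under the 25th percentile of their arrays, so this probe set gave no usable level. Ser6 and Ser8 had differences of 0.03 ± 0.34 and −0.03 ± 0.24 (SE), and the sign of Ser6 turned under quantile normalization (−0.02). Ser6 was under the array median on all 6 arrays.

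Spread between pools of the same diet. The proteases varied more between pools on one food than most genes. The SD within a diet, pooled over both diets, had a median of 0.46 in the 27 genes and 0.15 in all genes. It was above the 90th percentile of all genes (0.39) in 19 of the 27 (70.4%), which included all 13 Jonah genes, 5 of 9 trypsins and 1 of 4 Ser genes. The range over the arrays reached 1 or more in 17 of the 27 (63.0%), against 15.5% of all genes. In 26 of the 27 genes the range over the control arrays was wider than the difference between diets, and in 21 the range over the LCA arrays was. The share of all genes with such ranges was not counted, so this is not read as particular to the proteases. No test stands behind these counts, which describe 6 arrays.

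**Figure D3:**
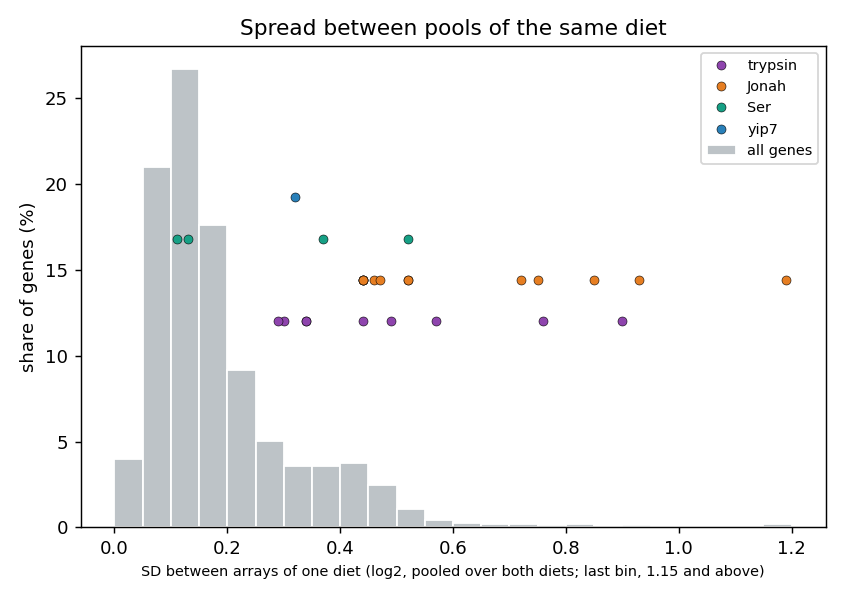
SD between arrays of one diet, pooled over both diets, as a share of all 11982 genes (grey bars) and for each protease gene (dots; their height only separates the groups of genes). Most proteases lie right of the bulk of genes, and Ser7 (0.11) and Ser12 (0.13) lie within it.

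The same count was taken in other lists. Among 205 other measured genes that the gene table lists under a serine protease number, 24 (11.7%) were above the same 90th percentile, and their median SD within a diet was 0.16. Among 32 measured genes listed as other digestive enzymes 18 (56.2%) were, with a median of 0.44. In the lists described below, 4 of 5 enterocyte markers were (median 0.80), 5 of 14 genes of the peritrophic matrix and 4 of 13 testis markers. Among 28 serpins 2 were, among 23 regulators of digestive genes 0, and among 6 enteroendocrine markers 0.

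Which pools were high or low. Control replicate 3 was the lowest of the 6 arrays in 15 of the 27 genes (55.6%), against 22.9% of all genes, and in 7 of the 9 trypsins. In 14 of these 15 another control array was the highest. LCA replicate 2 was the highest in 8 of the 27 (29.6%), against 9.97% of all genes, and in 7 of the 13 Jonah genes. Relative to each gene's mean, the median deviation of the trypsins was 0.29, 0.15 and −0.15 in LCA replicates 1 to 3, against 0.13, 0.23 and −0.57 in control replicates 1 to 3. For the Jonah genes these medians were −0.34, 0.52 and −0.24 in LCA flies, against 0.27, 0.40 and −0.23 in control flies. The trypsin median was thus lowest in control replicate 3, and the Jonah median highest in LCA replicate 2 and lowest in LCA replicate 1.

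**Figure D4:**
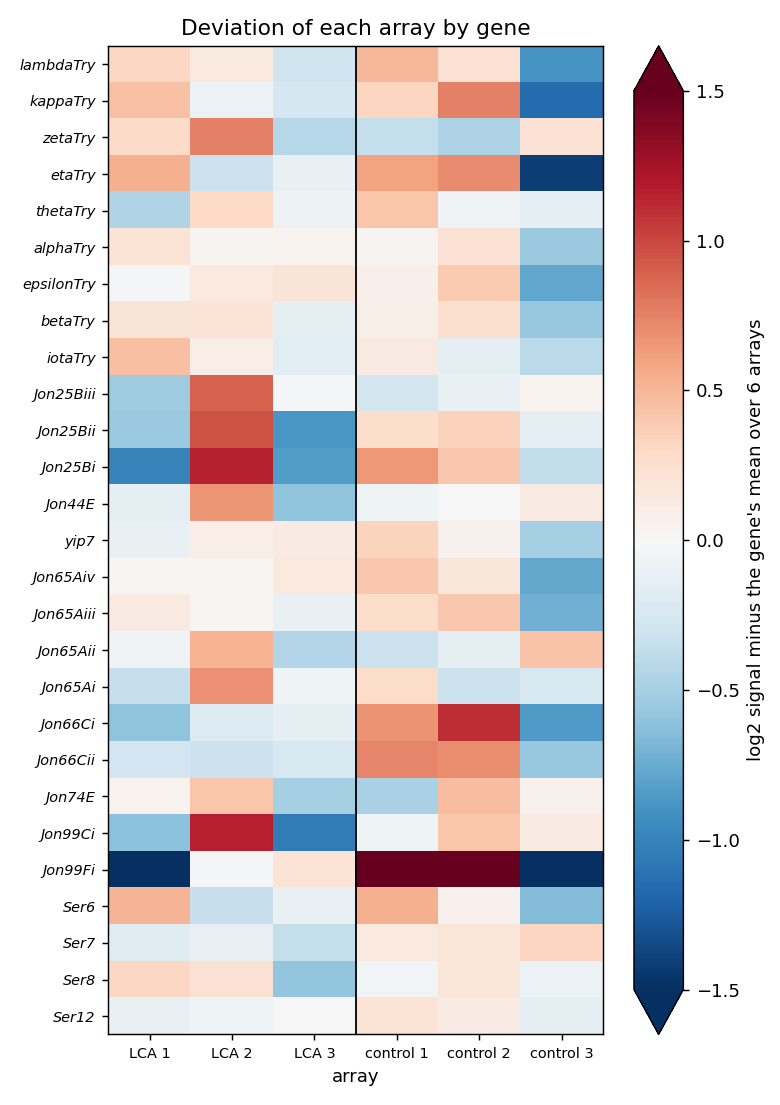
Deviation of each array from the mean of the gene over 6 arrays (colour, log2; colours end at −1.5 and 1.5), LCA arrays left of the line and control arrays right of it. The control 3 column is blue in most trypsins and in Jon65Aiii, Jon65Aiv, Jon66Ci, Jon66Cii and Jon99Fi, and the LCA 2 column is red in the Jon25B genes and Jon99Ci.

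Some neighbours in the genome were lowest in different arrays. In the trypsin array the order is lambdaTry, kappaTry, zetaTry, etaTry, thetaTry, alphaTry, epsilonTry, betaTry, gammaTry, CG30031, CG30025, deltaTry, CG13202 and iotaTry. kappaTry, chosen here after its values were seen, read 9.05, 8.52 and 8.35 in LCA flies, against 8.93, 9.37 and 7.45 in control flies. Like etaTry it was lowest in control replicate 3, while zetaTry, which lies between them, was higher there than in the other control arrays. In the Jon65A array Jon65Aiii and Jon65Aiv were low in control replicate 3, while Jon65Aii, chosen after its values were seen, read 8.23 there, above the other control arrays (7.48 and 7.66). The Jon25B genes were all highest in LCA replicate 2. Jon25Bi and Jon25Biii were lowest in LCA replicate 1, and Jon25Bii in LCA replicate 3.

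Leaving out single arrays. Each array was left out in turn. Without control replicate 3, 20 of the 27 genes were lower in LCA flies, and the median difference was −0.23 (−0.32 for the Jonah genes and −0.13 for the trypsins), beside −0.04 over all genes. Since that array was the lowest in 15 of them, its removal raises the control mean of those genes by construction. At an unadjusted p under 0.05 limma then counted 7 of the 27 lower and 0 higher, where all genes gave 14.0% lower and 18.4% higher. The 7 were Jon65Aiii, Jon66Ci, Jon66Cii, Jon99Fi, Ser7, etaTry and Ser12, the last with readings too dim to give a level, and none passed the adjusted threshold (lowest adjusted p = 0.0597). Jon66Cii differed by −1.0 ± 0.09, Jon66Ci by −1.20 ± 0.19 and Jon99Fi by −3.43 ± 0.79 (SE) in that fit, the last with LCA replicate 1 under the 25th percentile of its array. With LCA replicate 2 left out instead, Jon99Ci differed by −1.0 ± 0.20, Jon25Bi by −1.15 ± 0.31 and Jon25Bii by −0.87 ± 0.19 (SE; limma adjusted p from 0.374 to 0.379). That array was the highest in these 3 genes, so its removal lowers their LCA mean by construction, and 7.29% of all genes were lower at an unadjusted p under 0.05 in that fit. Without control replicate 1, which stood apart over all genes, 12 of the 27 were lower and the median was 0.14.

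**Figure D5:**
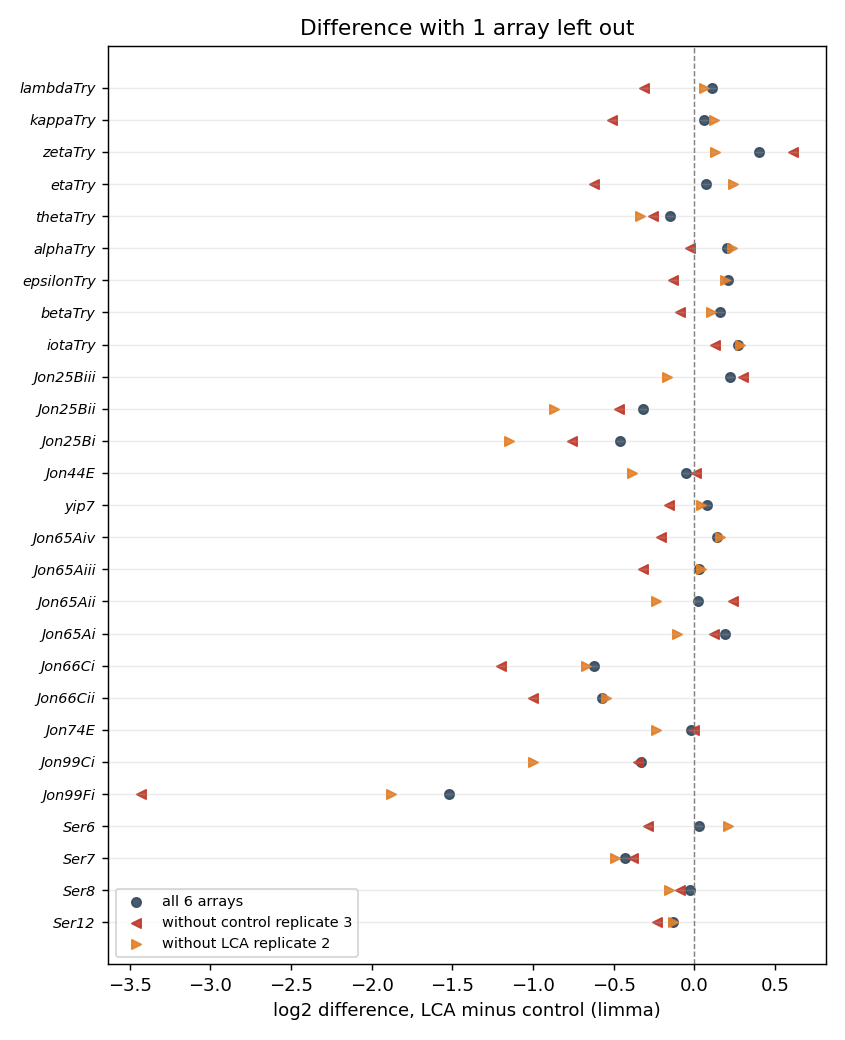
Log2 difference (LCA minus control) of each protease gene with all 6 arrays, without control replicate 3 and without LCA replicate 2. Without control replicate 3 the points of 20 genes lie left of 0, that of Jon99Fi at −3.43.

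Some markers of gut cells were also lowest in control replicate 3, and others were not. Of 5 measured enterocyte markers 3 were lowest in control replicate 3 (all genes: 22.9%). They were nub, an enterocyte transcription factor, mex1, a gene named for its midgut expression, and Npc2e, of a sterol-binding family. Npc2e read 12.10, 11.17 and 12.01 in LCA flies, against 12.07, 11.03 and 7.59 in control flies. Averaged over the 5 markers, signals ran from 9.26 to 9.61 in LCA arrays, and were 10.00, 9.65 and 8.16 in control replicates 1 to 3. The other markers, Npc2f and Alp4, were lowest in LCA replicates 1 and 3 (6.94 and 10.63), against 7.47 and 10.88 in control replicate 3. Of 5 measured progenitor markers, E(spl)m3-HLH and esg, transcription factors of intestinal progenitors, read 5.22 and 5.94 in control replicate 3, their lowest values. sc was also lowest there (3.62). zfh2 and sna were lowest in LCA replicates 3 and 2 (4.36 and 3.35), against 4.64 and 3.54 in control replicate 3. Signals of sna and sc were near the 25th percentile of the arrays (3.60 to 3.70). The progenitor list averaged 4.94 to 4.98 in LCA arrays and 4.59 to 5.51 in control arrays. The 3 acid-secreting cell markers averaged 7.11 to 7.20 in LCA arrays and 7.01 to 7.36 in control arrays, and the 6 enteroendocrine markers 8.41 to 8.47 in LCA arrays and 8.42, 8.22 and 8.18 in control replicates 1 to 3. Among 6 broad midgut regulators the averages were 7.83 to 8.06 in LCA arrays and 7.88 to 8.13 in control arrays, with LCA replicate 3 lowest and control replicate 3 next. The part of these cells in the protease values was not tested.

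Markers of other tissues were read in the same way. The 13 measured testis markers were all higher in LCA flies (median 0.45), as were 5951 of 11982 genes. They averaged 8.17 to 8.37 in LCA arrays and 7.46, 7.89 and 8.18 in control replicates 1 to 3. Control replicate 1 was the lowest array in 12 of the 13 testis markers, against 24.0% of all genes. The 4 measured photoreceptor markers had a median of 0.50 and averages of 10.47 to 10.55 in LCA arrays and 9.91 to 10.12 in control arrays. The 7 fat body markers averaged 8.28 to 8.47 in LCA arrays and 8.53 to 8.67 in control arrays, and the 5 Malpighian tubule markers 8.05 to 8.43 in LCA arrays and 8.40 to 8.73 in control arrays. The 3 salivary gland markers averaged 6.34 to 6.41 in LCA arrays and 6.17 to 6.36 in control arrays. The log2 difference between 3′ and 5′ control probe sets, a sign of RNA integrity averaged over 3 transcripts, was 2.60 to 2.70 in LCA arrays and 2.11 to 2.56 in control arrays. It was 2.34 in control replicate 3, between the values of the other control arrays.

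Other enzymes of digestion. A list of 32 measured genes of maltases, lipases, lysozymes, mannosidases, other proteases and a few further enzymes was drawn up by name. Which of them act in the gut was not tested. Of the 32, 22 were lower in LCA flies (median −0.12), and limma called 0 over all genes. At an unadjusted p under 0.05, 5 of the 32 were lower and 0 higher, beside 9.77% lower and 8.33% higher among all genes. Mal-B2, a maltase, read 10.51, 10.38 and 10.11 in LCA flies, against 11.18, 11.24 and 11.46 in control flies, with no overlap and a difference of −0.96 ± 0.13 (SE; limma adjusted p = 0.104). Lip4, a lipase, differed by −0.47 ± 0.11, CtsK2, a cysteine protease, by −0.44 ± 0.12, and LManII, a mannosidase, by −0.43 ± 0.13 (SE; limma adjusted p from 0.152 to 0.217). The SDs of these 4 were 0.17 to 0.23 in LCA flies and 0.03 to 0.14 in control flies (n = 3 each). They were picked by smallest p, which favours a small spread, so no contrast with the rest of the list is drawn. LysX, a lysozyme chosen after its values were seen, read 10.23, 9.39 and 10.48 in LCA flies, against 10.70, 10.63 and 5.18 in control flies, with control replicate 3 far below the rest. LManIII, a mannosidase chosen in the same way, read 8.62, 9.65 and 5.41 in LCA flies, against 7.30, 8.57 and 7.82 in control flies, and there LCA replicate 3 was lowest. LCA replicate 3 was the lowest array in 16 of the 32, and control replicate 3 in 8.

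Genes of the peritrophic matrix, the chitin and mucin lining of the midgut, were lowest in control replicate 3 in 7 of 14 (50.0%, against 22.9% of all genes). Their median difference was 0.00, with 7 lower and 7 higher. Cht8, a chitinase, differed by 0.67 ± 0.15 and Muc68Ca, a mucin, by −0.32 ± 0.12 (SE; limma adjusted p = 0.149 and 0.255), and neither was called. Cht4, another chitinase, differed by 0.63 ± 0.40 and Muc96D by −0.16 ± 0.10 (SE).

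Regulators of digestive genes were lower in 16 of 23 (median −0.23), and 9 lower and 2 higher had an unadjusted p under 0.05 (all genes: 9.77% lower, 8.33% higher). limma called 0 over all genes, and 0 of the 23 had an SD within a diet above the 90th percentile. Mad, a transcription factor of BMP signalling, differed by −0.50 ± 0.09, and put, a receptor of the activin and BMP pathways, by −0.43 ± 0.09 (SE). foxo, a transcription factor of nutrient signalling, differed by −0.42 ± 0.09 and Hnf4, a nuclear receptor of lipid metabolism, by −0.37 ± 0.08 (SE; limma adjusted p from 0.134 to 0.150 for the 4). In each the LCA arrays lay below the control arrays. These genes act in many tissues besides the gut.

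Other serine proteases and their inhibitors. Of the 205 other genes listed under a serine protease number, 120 were lower in LCA flies (58.5%, median −0.04). At an unadjusted p under 0.05 limma counted 31 lower and 21 higher (all genes: 9.77% and 8.33%), with 0 called over all genes. CG30002 differed by −0.98 ± 0.15, CG4259 by −0.81 ± 0.12 and CG11842 by −0.75 ± 0.11 (SE; limma adjusted p = 0.104 for each). Of 16 clip-domain and immune serine proteases, a list that overlaps the other serine proteases, 15 were lower (median −0.13) and 4 were lower at an unadjusted p under 0.05 (all genes: 9.77%). They were teq (−0.57 ± 0.10), psh, which activates Toll signalling (−0.33 ± 0.08), Sp7, a protease of melanisation (−0.29 ± 0.10), and Hayan, another (−0.31 ± 0.12; SE). Their adjusted p in limma ran from 0.119 to 0.255. Of 28 serpins, a family of serine protease inhibitors, 13 were lower and 15 higher (median 0.02). At an unadjusted p under 0.05, 8 were lower and 1 was higher (all genes: 9.77% and 8.33%). Among them nec differed by −0.48 ± 0.10, Spn43Ab by −0.61 ± 0.14, Spn88Ea by −0.41 ± 0.10 and Spn75F by 0.42 ± 0.09 (SE; limma adjusted p from 0.140 to 0.170).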

How the data were processed

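The 6 arrays (Affymetrix Drosophila Genome 2.0 probe sets) were used as the deposited value table. Its log2 signals, 2.32 to 14.6, were made by the authors. How they were summarized and normalized is not given in the sources used here. Array medians lay between 6.31 and 6.39, and a shift of most transcripts could be hidden by scaling. Having 3 arrays per diet limits the precision. No label ties the pools to separate cultures. The p-values therefore reflect only how far these pools varied, and that variation may be technical.

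Probe sets were named through GEO's platform annotation, updated with the gene table of assembly Release 6 plus ISO1 MT (13544 of 13647 with 1 symbol matched; 402 had several symbols and 4720 none). After 183 control probe sets were left out, 18769 were tested. Where a gene had several probe sets, the one of highest mean signal across the arrays was read. limma 3.58.1 in R 4.3.3 (lmFit, eBayes, LCA minus control, no covariate) was fitted over all genes with Benjamini-Hochberg adjustment and a threshold of 0.05. SEs are limma's moderated ones.

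Genes and lists were chosen with earlier results of these data known. The 8 protease genes with the smallest p, the 5 with the highest mean, the 4 with the widest range and yip7 are given array by array, and up to 4 genes of each other list by smallest p. A list of trypsin-fold proteins by sequence could not be made without a protein table. The list of other serine proteases, by the SP or SPH numbers of the gene table, replaced it and was chosen after seeing the data. It is a list by name, and which of its genes encode active proteases was not tested. On simulated arrays with 200 of 11982 genes changed, limma recovered 0% of 1.5-fold, 91.5% of 2-fold and 98.0% of 3-fold changes (0, 13 and 14 false calls). The changed genes were drawn at random from all genes, with a median SD within a diet of 0.15, against 0.46 in the proteases. These rates therefore do not apply to the proteases, for which recovery was not simulated. Deviations from the group means correlated at 0.309, −0.035 and 0.056 over genes between same-numbered arrays 1, 2 and 3. Not every pair was over 0.1, so the numbers were not taken to pair the arrays.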

Additional observations from a re-analysis of the deposited data

How the results depend on the processing

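Quantile normalization turned the sign of Jon65Aii (−0.02) and Ser6 (−0.02), and centring each array on its median that of Jon65Aii (−0.03), Jon65Aiii (−0.01) and Ser6 (−0.02). limma called 6 probe sets with a floor at the 25th percentile and 0 without it. Array weights changed most: limma called 6861 probe sets and 5415 of 11982 genes, 6465 genes had an unadjusted p under 0.05, and 20 proteases were lower. The shares were smaller in the proteases, where 10 of 27 had an unadjusted p under 0.05 and 7 passed the adjusted threshold (lowest adjusted p = 0.00478). These were Jon66Ci (−1.39), Jon66Cii (−0.98), Jon99Fi (−3.77), Ser7 (−0.36), Ser12 (−0.19), iotaTry (0.31) and zetaTry (0.85). Median differences were −0.11 for the proteases, −0.19 for the Jonah genes and −0.09 for the trypsins. That setting gave control replicate 2 a weight of 16.24, against 0.22 to 1.71 for the others, so that the control mean rests largely on 1 array. It turned the sign of Jon44E (0.20), Jon65Aiii (−0.34), Jon65Aiv (−0.11), Ser6 (−0.10), alphaTry (−0.11), betaTry (−0.09), epsilonTry (−0.27), etaTry (−0.68), kappaTry (−0.66), lambdaTry (−0.09), thetaTry (0.04) and yip7 (−0.02). The replicate numbers were not taken to pair the arrays. With the replicate block, 2 of the 27 proteases had a limma unadjusted p under 0.05, beside 2694 of 11982 genes, and 0 genes were called. With 1 array left out in turn, limma called 0 genes, and 1125 to 3881 of 11982 genes had an unadjusted p under 0.05. In these fits 7 to 20 of the 27 proteases were lower and 1 to 7 had an unadjusted p under 0.05. The median difference then ran from −0.23 to 0.14 for the proteases, from −0.39 to 0.10 for the Jonah genes and from −0.13 to 0.32 for the trypsins. The sign of 19 proteases depended on 1 array. Their differences ran from −0.39 to 0.24 in Jon44E, −0.32 to 0.24 in Jon65Aiii, −0.29 to 0.30 in Ser6, −0.62 to 0.44 in etaTry, −0.51 to 0.45 in kappaTry, −0.31 to 0.38 in lambdaTry and −0.34 to 0.04 in thetaTry. They ran from −0.17 to 0.54 in Jon25Biii, −0.11 to 0.41 in Jon65Ai, −0.24 to 0.25 in Jon65Aii, −0.87 to 0.04 in Jon25Bii, −0.27 to 0.22 in Jon74E and −1.0 to 0.11 in Jon99Ci. They ran from −0.19 to 0.25 in Ser8, −0.21 to 0.37 in Jon65Aiv, −0.03 to 0.36 in alphaTry, −0.09 to 0.32 in betaTry, −0.13 to 0.45 in epsilonTry and −0.16 to 0.26 in yip7. The cause of these changes was not tested. The list of trypsin-fold proteins by sequence was not run.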
